A study of Mus musculus with 6 samples.

Results

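CD73, the product of Nt5e, is a cell surface enzyme that removes the last phosphate of extracellular AMP and so makes adenosine. Expression of the genes around this reaction was compared between CD73+ and CD73- adipose derived mesenchymal stem cells (AD-MSCs) of C57BL/6 mice. The 10 genes listed included the nucleotide-splitting enzymes Nt5e, Entpd1, Entpd2, Entpd5 and Enpp1. The others were the adenosine receptors Adora2a and Adora2b, the adenosine removing enzymes Ada and Adk, and the nucleoside transporter Slc29a1. Every probe set that the array's annotation gives to only 1 of these genes was taken, whatever its value, which gave 21 probe sets for 7 of the 10 genes, out of 18193 genes with such a probe set in all. Enpp1, Adora2a and Adora2b are unnamed in the annotation used here, so their levels were not analysed here.

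The cells came from the adipose tissue around the groin of adult mice, were sorted by flow cytometry with CD73 as the only criterion given, and both subgroups were then grown in low sugar DMEM with fetal bovine serum. The microarray analysis used sorted cells at the fifth passage, so RNA was taken after further culture and not at the sort. CD73+ and CD73- AD-MSCs had 3 arrays each, with no unsorted cells and no treatment. Whether arrays of 1 subgroup stand for separate mice, sorts or cultures is not said in the labels, so the p-values rest on a spread between arrays that may be technical.

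Outside the cell, ATP and ADP are cut to AMP by the ectonucleoside triphosphate diphosphohydrolases, of which Entpd1 (CD39) is the best known, and CD73 turns the AMP into adenosine. Adenosine acts on G protein-coupled receptors, and those encoded by Adora2a and Adora2b raise cAMP. Its signal ends when adenosine is deaminated to inosine by Ada or enters the cell through equilibrative transporters such as Slc29a1 and is phosphorylated back to AMP by Adk. CD73 is also one of the surface antigens by which stromal cells in culture are commonly recognised.

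The values are log2 signals, and a difference is CD73+ minus CD73-, so that 1 unit is a doubling. A probe set is called higher or lower where limma's adjusted p, corrected by the Benjamini-Hochberg method over all 45037 probe sets that are not controls, was under 0.05. The array medians ranged from 5.28 to 5.37. Arrays of the same subgroup correlated at 0.997 to 0.998 over all probe sets and arrays of different subgroups at 0.993. The 24 poly-A control probe sets, which detect bacterial transcripts normally added to the RNA before labelling, were lower by 0.95 on average in CD73+ AD-MSCs (7.83 against 8.78). Of the other controls, the 18 hybridisation probe sets differed by -0.23, the 3 of 18S RNA by -0.56 and the 3 of Gapdh by 0.26, each with no overlap between the subgroups. When the arrays were scaled to the poly-A controls, the median of all probe sets moved to 0.95. On that scale all 21 probe sets of the adenosine pathway genes were called higher, as were 44758 of all 45037 probe sets. Relative to that median each of the 21 kept its difference from the deposited scale. The scaling moves all probe sets of an array by the same amount, so this had to hold and is no check of the differences. Each statement below that a probe set was lower therefore holds on the deposited scale, or relative to the median of all probe sets, and turns into a higher value after scaling to the poly-A controls. The part of this shift in the results was not tested.

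The labelled cell type was checked against its markers. Of the 10 stromal markers listed, 9 were measured and all lay above the median level, with Cd44 at 11.43 and 11.25 and Itgb1 (CD29) at 11.68 and 11.50 in CD73+ and CD73- AD-MSCs. The leukocyte antigen Ptprc (CD45) was dim, at 3.06 and 3.19. Over both subgroups, 5 of the 10 haematopoietic and macrophage markers lay above the median level of 5.33, beside 11128 of all 18193 genes. These were Csf1r (6.87 and 6.38), Laptm5 (6.04 and 6.13), Cd68 (5.70 and 5.51), Lyz2 (5.49 and 5.36) and Fcer1g (5.28 and 5.57). Lyz2 and Fcer1g were at the 51.4 percentile of level and Cd68 at the 53.8 percentile. On the deposited scale 6 of the 9 stromal genes (Thy1, Pdgfra, Pdgfrb, Vcam1, Col1a1 and Col1a2) were higher in CD73+ AD-MSCs and 0 were lower. Of all genes above the median level, 15.5% were higher and 19.6% lower. The summed linear signal of the list ran from 22484 to 22646 in CD73+ against 16218 to 16452 in CD73- arrays. Col1a2 (13.38 and 12.83) weighed most in that sum. In bulk samples, fewer cells of a type and less RNA per cell cannot be told apart.

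The bases before the start site are shown for 3 genes that the results below turn on. Nt5e is the gene of the sorted antigen, and Adk and Entpd2 each hold a probe set whose call lasted when any 1 array was left out. Each sequence is the 250 bases before the annotated start, 5′ to 3′ on the strand of the gene, from RefSeq on GRCm38.p6. Nt5e lies on chromosome 9 (chr9:88327359-88327608, plus strand), the first of 2 annotated Adk starts on chromosome 14 (chr14:21052324-21052573, plus strand) and Entpd2 on chromosome 2 (chr2:25395624-25395873, plus strand). Capitals mark every match, on either strand, to the cAMP response element core TGACG, the hypoxia response element core ACGTG, the GC box GGGCGG or the TATA box TATAAA.
Nt5e: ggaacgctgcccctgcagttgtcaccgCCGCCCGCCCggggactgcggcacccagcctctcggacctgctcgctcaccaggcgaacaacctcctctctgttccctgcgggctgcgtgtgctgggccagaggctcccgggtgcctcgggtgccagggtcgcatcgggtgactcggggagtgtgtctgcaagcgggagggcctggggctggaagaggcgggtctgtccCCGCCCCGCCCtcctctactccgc
Adk: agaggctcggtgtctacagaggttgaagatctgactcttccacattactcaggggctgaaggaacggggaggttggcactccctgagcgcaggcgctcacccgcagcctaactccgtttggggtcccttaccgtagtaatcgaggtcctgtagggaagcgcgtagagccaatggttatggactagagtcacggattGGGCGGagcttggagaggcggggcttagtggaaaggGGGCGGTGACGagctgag
Entpd2: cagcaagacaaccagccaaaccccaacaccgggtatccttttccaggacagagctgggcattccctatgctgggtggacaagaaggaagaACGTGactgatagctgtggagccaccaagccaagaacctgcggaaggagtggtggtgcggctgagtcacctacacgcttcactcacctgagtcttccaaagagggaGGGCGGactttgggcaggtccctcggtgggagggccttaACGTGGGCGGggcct
The Nt5e window was the richest in G and C of the 3 shown, at 72.0%, against 58.8% for Adk, 59.2% for Entpd2 and a median of 52.4% over all windows. It held 4 GC boxes in overlapping pairs, with the farthest 223 bases and the nearest 19 bases before the start, and none of the other motifs. The Adk window held 2 GC boxes and 1 cAMP response element core, which lies 12 bases before the start. The window of the second Adk start, not shown, was richer in G and C than that of Nt5e, at 75.2%. It held 3 GC boxes and no cAMP response element core. The Entpd2 window held 2 GC boxes and 2 hypoxia response element cores, and the nearer core overlaps a GC box. Of 32851 windows of the same length, 32.7% held a GC box, 17.8% a cAMP response element core, 16.6% a hypoxia response element core and 12.4% a TATA box. These are matches of letters and not sites of binding.

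Over the 21 probe sets, 5 were higher and 3 were lower in CD73+ AD-MSCs, and 13 were not called. That is 23.8% higher and 14.3% lower, beside 9.79% and 9.11% of all probe sets. The 8 calls were all among the 13 probe sets above the median level, where 17% of all probe sets were higher and 16.5% lower. Of the 8 probe sets below the median level, limma called 0, 1 had an unadjusted p under 0.05, and the methods' t-test also called 0; their differences ran from -0.12 to 0.34. The arrays of the subgroups did not overlap in 10 of the 21 probe sets (47.6%), 6 with CD73+ higher and 4 with CD73+ lower, beside 34.9% of all probe sets. The median difference was 0.033, beside -0.00019 over all probe sets. With each gene read from its brightest probe set, Nt5e, Ada, Adk and Slc29a1 were higher, Entpd2 and Entpd5 were lower on the deposited scale, and Entpd1 was not called. Over all genes read in this way 10.1% were higher and 12.6% were lower.

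**Figure D1:**
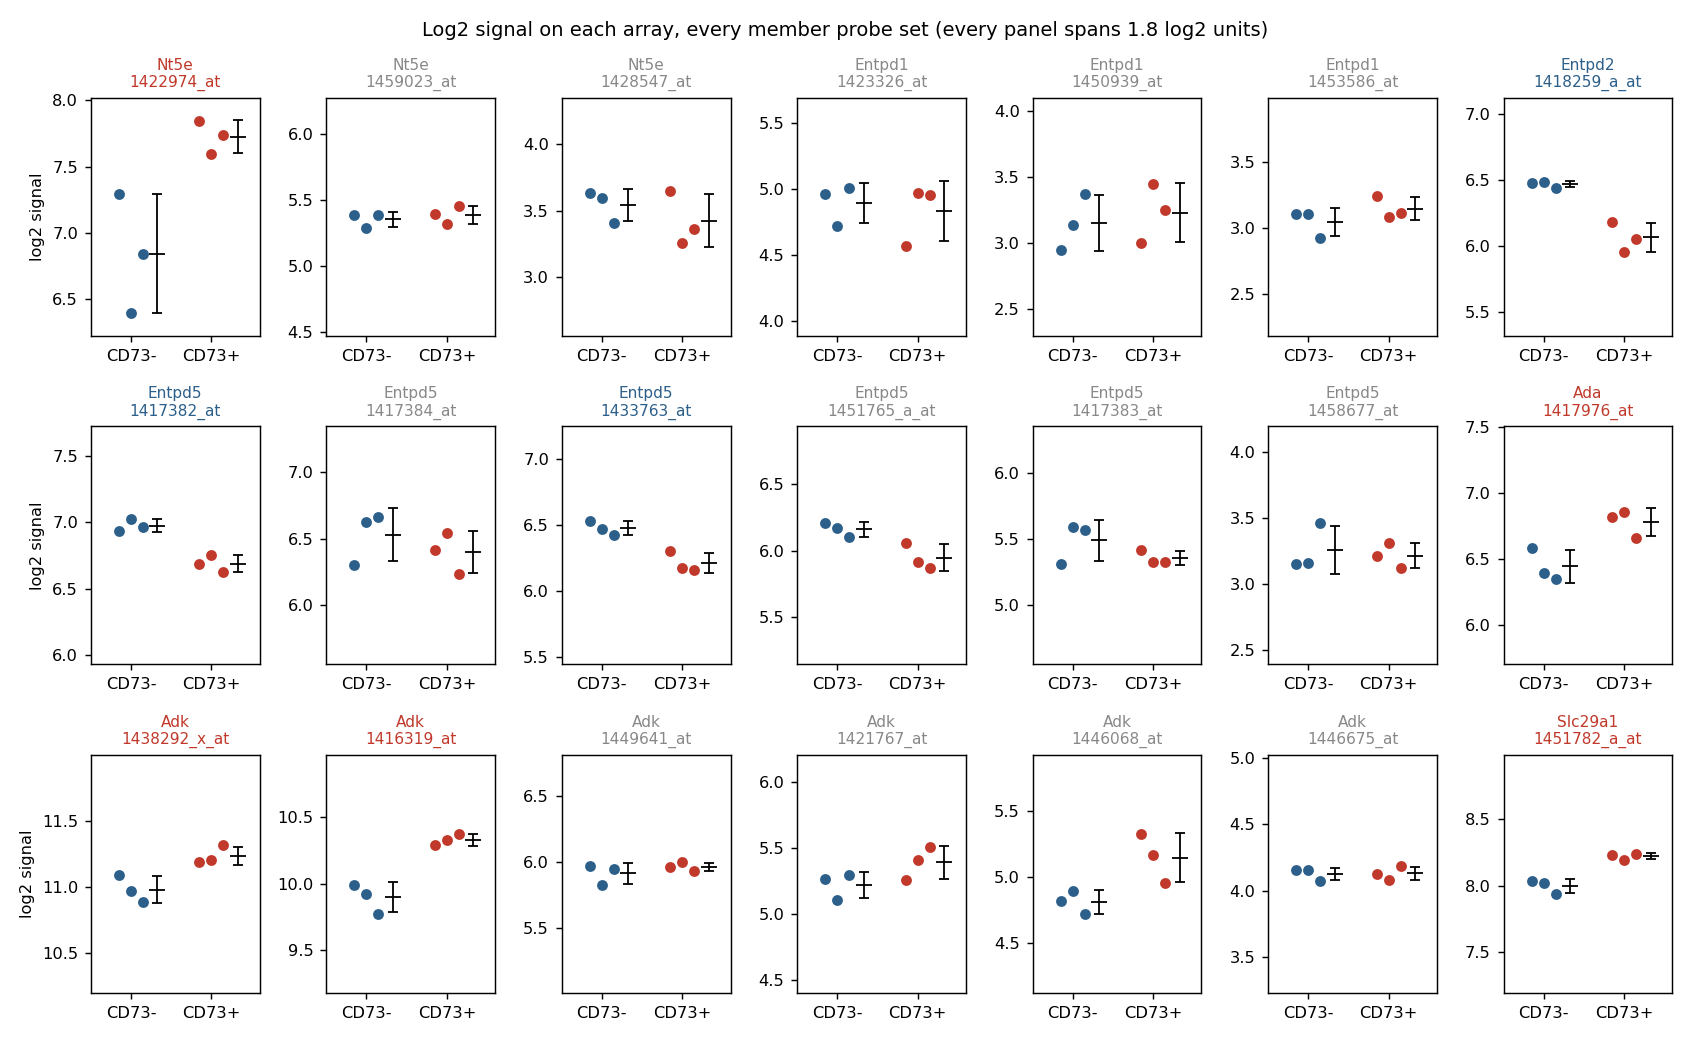
Log2 signal (y axis, 1.8 units in every panel) of all 21 probe sets on each of the 3 CD73- (blue points) and 3 CD73+ arrays (red points), with the mean and SD of each subgroup as black bars. Red titles mark the 5 probe sets higher and blue titles the 3 lower in CD73+ AD-MSCs on the deposited scale, which are not lower with the poly-A controls as the scale; the CD73- points of Nt5e 1422974_at are the most scattered, from 6.39 to 7.29.

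Nt5e is both the sorted gene and the centre of the pathway, and its RNA differed on 1 of its 3 probe sets. On 1422974_at, the brightest, the signal was 7.29, 6.39 and 6.84 on the CD73- arrays and 7.84, 7.60 and 7.74 on the CD73+ arrays. The subgroups did not overlap, with a gap of 0.31 between the highest CD73- and the lowest CD73+ array, while the CD73- arrays spread over 0.90 among themselves. The means were 7.73 ± 0.12 and 6.84 ± 0.45 (SD, n = 3 each), a 1.85-fold difference (log2 0.88, 95% interval 0.41 to 1.36, limma adjusted p = 0.0218). Because the sort was on CD73, this difference checks the labels and says nothing beyond them. The CD73- mean was above the median level of all probe sets, which was 5.33. The SD of the CD73- arrays was larger than that of 99.9% of all probe sets, whose median was 0.092, whereas the SD of the CD73+ arrays was at the 70.3 percentile.

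The remaining Nt5e probe sets did not differ beyond their spread. On 1459023_at the signal was 5.39, 5.29 and 5.39 on CD73- arrays and 5.39, 5.32 and 5.45 on CD73+ arrays, a difference of 0.033 (95% interval -0.11 to 0.18, limma adjusted p = 0.798). On 1428547_at, at the 17.7 percentile of level, it was 3.63, 3.59 and 3.40 against 3.65, 3.26 and 3.36, a difference of -0.12 (95% interval -0.38 to 0.14, limma adjusted p = 0.546). Both intervals leave out the 0.88 of the brightest probe set. The call on 1422974_at was lost without replicate 3 of CD73- (limma adjusted p = 0.0569) or replicate 1 (0.0763) or 3 (0.0564) of CD73+, and under the methods' t-test (adjusted p = 0.127). The mean over the 3 probe sets gave 0.27 with a limma adjusted p of 0.101.

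Of the 10 probe sets of Entpd1, Entpd2 and Entpd5, none was called higher in CD73+ AD-MSCs on the deposited scale. Scaling to the poly-A controls made all 10 higher, as it did nearly all probe sets of the array. Entpd1, which cuts ATP and ADP to AMP and supplies CD73 with its substrate, was dim, with all 3 probe sets below the median level. Its brightest, 1423326_at, gave 4.96, 4.72 and 5.003 on CD73- arrays and 4.57, 4.97 and 4.95 on CD73+ arrays, and the subgroups overlapped. The differences of 1423326_at, 1450939_at and 1453586_at were -0.062 (95% interval -0.36 to 0.23), 0.078 (-0.25 to 0.41) and 0.10 (-0.08 to 0.28). Limma called 0 of the 3, 0 had an unadjusted p under 0.05 and the methods' t-test called 0. With 3 arrays per subgroup a difference in Entpd1 smaller than about these intervals was not detectable.

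Entpd2, which prefers ATP and releases ADP, was lower in CD73+ AD-MSCs on the deposited scale. Its probe set 1418259_a_at gave 6.48, 6.48 and 6.44 on CD73- arrays and 6.18, 5.96 and 6.06 on CD73+ arrays. The CD73- arrays were close together and all lay above the CD73+ arrays. The means were 6.07 ± 0.11 in CD73+ and 6.47 ± 0.022 in CD73- AD-MSCs (SD, n = 3 each), a 1.32-fold lower signal (log2 -0.40, 95% interval -0.57 to -0.24, limma adjusted p = 0.00698). The call lasted without any 1 array, with limma adjusted p from 0.0104 to 0.0317. After scaling to the poly-A controls the difference was 0.55.

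Entpd5 encodes a nucleoside diphosphatase of the endoplasmic reticulum that acts mainly on UDP and GDP and is not known to supply CD73. All 6 of its probe sets had a negative difference on the deposited scale, and 2 of them were called lower. The brightest, 1417382_at, gave 6.94, 7.03 and 6.97 on CD73- arrays and 6.69, 6.75 and 6.63 on CD73+ arrays, with no overlap. Its difference was -0.29 (SE 0.061, limma adjusted p = 0.0154), a 1.22-fold lower signal. On 1433763_at the signal was 6.53, 6.47 and 6.42 against 6.30, 6.18 and 6.16, again with no overlap, and the difference was -0.26 (SE 0.065, limma adjusted p = 0.0284). On 1451765_a_at the arrays did not overlap either (6.21, 6.17 and 6.10 against 6.06, 5.91 and 5.87), but the difference of -0.21 was not called (limma adjusted p = 0.0763). The probe sets 1417384_at, 1417383_at and 1458677_at overlapped, with differences of -0.13, -0.13 and -0.044. Leaving out 1 array ended the call of 1417382_at without CD73- replicate 2 (limma adjusted p = 0.0636) or CD73+ replicate 1 (0.0604), and that of 1433763_at without replicate 1 (0.0891) or 2 (0.0823) of CD73- or replicate 2 (0.1004) or 3 (0.0755) of CD73+. The methods' t-test did not call 1433763_at either (adjusted p = 0.0550). After scaling to the poly-A controls the 6 differences lay between 0.67 and 0.91, and the mean over the 6 probe sets was not called on the deposited scale (log2 -0.18, limma adjusted p = 0.0632).

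**Figure D2:**
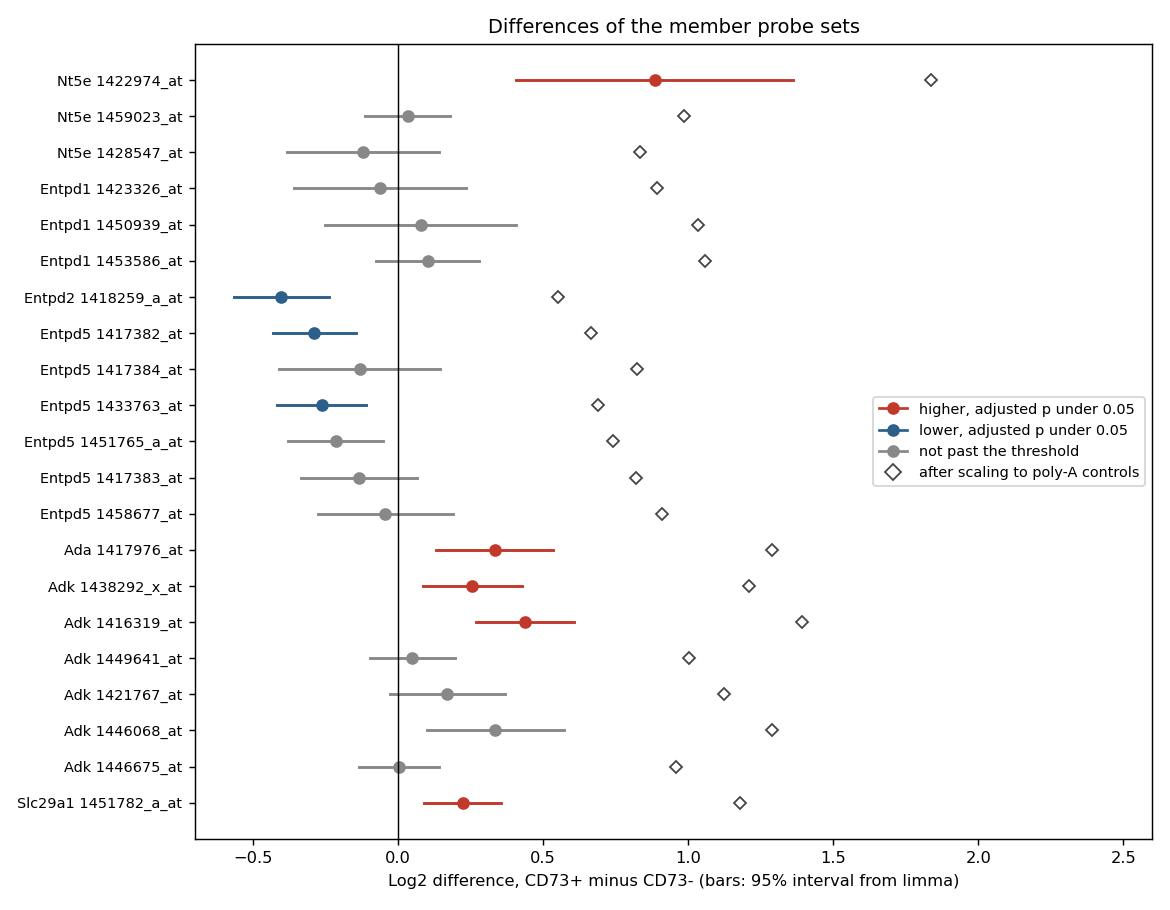
Log2 difference, CD73+ minus CD73- (x axis), of the 21 probe sets, with the 95% interval from limma as bars and, as open diamonds, the difference after scaling to the poly-A controls. Red and blue points were called higher and lower on the deposited scale and grey ones were not called; the diamonds run from 0.55 for Entpd2 to 1.84 for Nt5e 1422974_at, so that no probe set is lower on that scale.

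Both enzymes that remove adenosine were higher in CD73+ AD-MSCs, Ada on its only probe set and Adk on 2 of 6. Ada, which deaminates adenosine to inosine, gave 6.59, 6.39 and 6.35 on CD73- arrays and 6.82, 6.85 and 6.66 on CD73+ arrays of 1417976_at. The lowest CD73+ array was just above the highest CD73- array. The means were 6.78 ± 0.11 and 6.44 ± 0.13 (SD, n = 3 each), a 1.26-fold difference (log2 0.33, 95% interval 0.13 to 0.53, limma adjusted p = 0.0338). The call was lost without replicate 2 (limma adjusted p = 0.112) or 3 (0.0866) of CD73- or replicate 1 (0.113) or 2 (0.114) of CD73+. It was lost too under median centring (0.0592) and under the methods' t-test (0.110).

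Adk, which turns adenosine back into AMP inside the cell, was called on its 2 brightest probe sets. On 1416319_at the signal was 9.99, 9.92 and 9.77 on CD73- arrays and 10.29, 10.33 and 10.38 on CD73+ arrays. The subgroups were well apart, and the CD73+ arrays lay close together. The means were 10.33 ± 0.044 and 9.89 ± 0.11 (SD, n = 3 each), a 1.35-fold difference (log2 0.44, SE 0.073, 95% interval 0.27 to 0.61, limma adjusted p = 0.00569). This call lasted without any 1 array, with limma adjusted p from 0.0109 to 0.0246. On 1438292_x_at, a kind of probe set whose probes can match other transcripts as well, the signal was 11.09, 10.97 and 10.88 against 11.19, 11.21 and 11.31. Its difference was 0.26 (SE 0.073) and close to the threshold (limma adjusted p = 0.0481). That call lasted only without CD73- replicate 1 (0.0390) and was lost without any 1 of the other 5 arrays, where the limma adjusted p reached 0.132. It was lost too under median centring (0.133), with robust eBayes (0.0519) and under the methods' t-test (0.105).

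The dimmer Adk probe sets had smaller or less certain differences. On 1446068_at the arrays did not overlap (4.82, 4.90 and 4.72 against 5.32, 5.16 and 4.95), but the difference of 0.34 was not called (limma adjusted p = 0.0590); it was called without CD73+ replicate 3 (0.0183). The other 3, 1449641_at, 1421767_at and 1446675_at, overlapped, with differences of 0.049, 0.17 and 0.0042. The intervals of 1449641_at (-0.10 to 0.20) and 1446675_at (-0.13 to 0.14) include 0 and lie below the 0.44 of 1416319_at.

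Slc29a1, the equilibrative transporter through which adenosine crosses the membrane, gave 8.04, 8.02 and 7.94 on CD73- arrays and 8.23, 8.19 and 8.24 on CD73+ arrays of 1451782_a_at. The arrays did not overlap and both subgroups were tight. The means were 8.22 ± 0.024 and 7.998 ± 0.052 (SD, n = 3 each), a 1.17-fold difference (log2 0.22, 95% interval 0.09 to 0.35, limma adjusted p = 0.0313). The call was lost whichever of the 6 arrays was left out, with limma adjusted p from 0.0562 to 0.109, and under median centring (0.121).

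**Figure D3:**
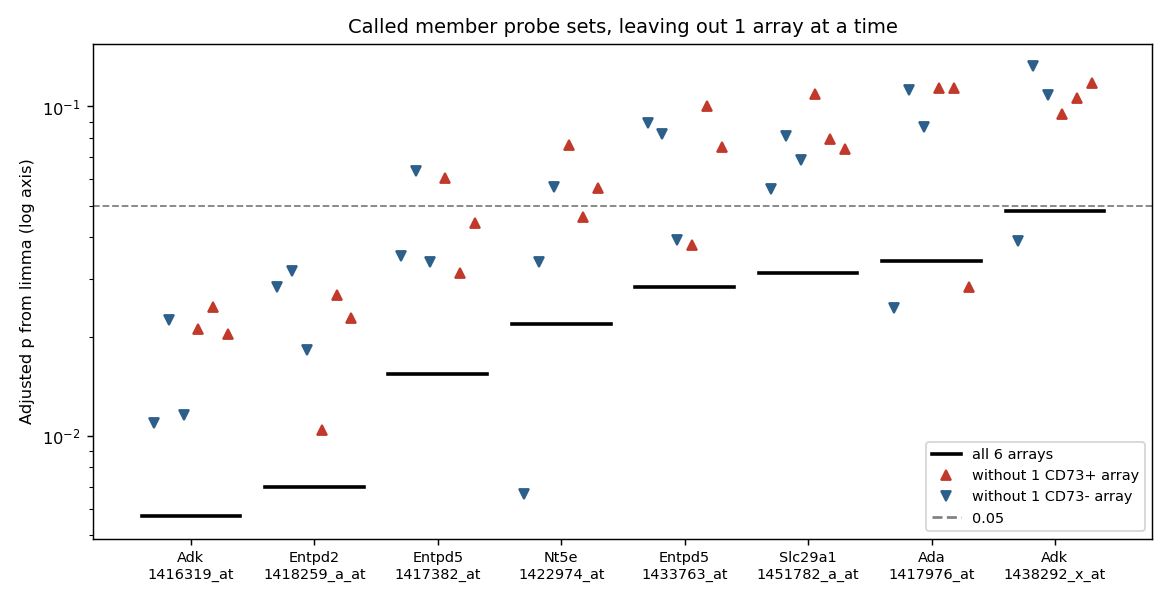
Limma adjusted p (y axis, log scale) of the 8 called probe sets with all 6 arrays (black lines) and with 1 CD73+ (red triangles) or 1 CD73- array (blue triangles) left out; the dashed line is the threshold of 0.05. Adk 1416319_at and Entpd2 1418259_a_at stay under the line in all 6 cases, with a highest value of 0.0246 and 0.0317, and Slc29a1 1451782_a_at in none; the calls of Entpd2 and Entpd5 are lower on the deposited scale alone, and turn higher with scaling to the poly-A controls.

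The arrays were not alike in how far they stood from the other subgroup. In all 5 probe sets that were higher in CD73+ AD-MSCs, CD73- replicate 1 was the CD73- array nearest to the CD73+ arrays. Over all 4408 probe sets called higher, that array was the nearest in 39.3%, CD73- replicate 2 in 38.8% and CD73- replicate 3 in 21.9%. Of the 3 probe sets called lower on the deposited scale, CD73- replicate 1 was the nearest in 1 and CD73- replicate 3 in 2, and over all 4105 called lower the shares of these arrays were 23.5% and 58.9%. The 5 probe sets share these arrays and are not independent of each other. On Nt5e 1422974_at, CD73- replicate 1 lay 0.90 above CD73- replicate 2, and the difference was 1.11 without the former and 0.66 without the latter.

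The genes whose 6 values lay closest to those of Nt5e 1422974_at were taken by the root mean square difference of values centred on each gene's mean, among 10775 genes above the median level and without provisional names. They were Gprc5b (0.172), Spon2 (0.183), Rian (0.201), Il1rn (0.208) and Ccdc34 (0.216), beside a median of 0.534. Gprc5b encodes an orphan G protein-coupled receptor, Spon2 a secreted matrix protein, Rian a long non-coding RNA of an imprinted cluster and Il1rn the interleukin-1 receptor antagonist. Gprc5b gave 5.70, 5.23 and 5.29 on CD73- arrays and 6.25, 6.36 and 6.26 on CD73+ arrays. The differences of the 5 genes were 0.89, 0.94, 0.78, 0.80 and 0.65. In each of the 5 genes, as in Nt5e, CD73- replicate 1 was the highest CD73- array. The genes were chosen for this likeness over 6 arrays, so it is a description with no test.

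**Figure D4:**
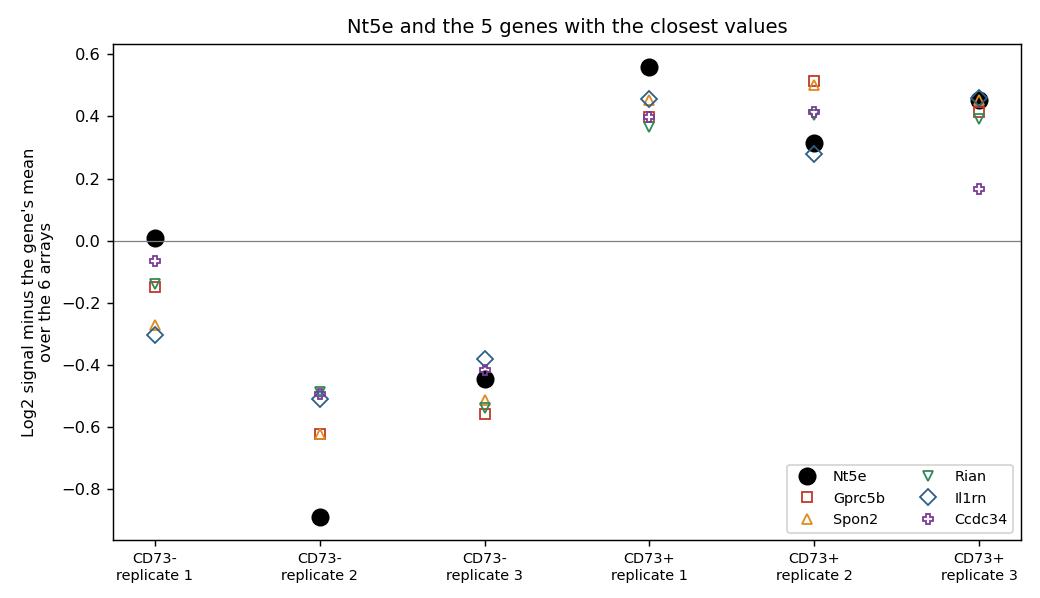
Log2 signal minus each gene's mean over the 6 arrays (y axis) for Nt5e 1422974_at (black) and the 5 genes closest to it (coloured symbols) on each array (x axis). Nt5e spans a wider range over the CD73- arrays than the 5 genes do, with CD73- replicate 1 about level with its own mean and CD73- replicate 2 the lowest.

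The rest of the pathway was read from 6 lists of 86 genes, of which 75 were measured, each from its brightest probe set. Some genes not called on that probe set had other probe sets that were called, and some called genes had others that were not. Beside the brightest, 1 more of the 5 probe sets was called the same way for Enpp3, Ak4 and Prkar1b. It was 2 more of 5 for Entpd7, 3 more of 5 for Rapgef3, 2 more of 4 for Prkar2a and 1 more of 3 for Prkar2b. Ak1, Prkaca and Adcy1 (2 probe sets each) and Adal (3) had no other called. In Gnai2, Enpp4 and Crtc2 both probe sets were called the same way. Of the 75 genes, 13 (17.3%) were higher and 6 (8.0%) were lower in CD73+ AD-MSCs on the deposited scale, beside 10.1% and 12.6% of all genes. Of the 75, 60 lay above the median level, where 15.5% of all genes were higher and 19.6% lower. The share called higher was thus near that background, and the share called lower was under it. Scaling to the poly-A controls made all 75 higher, as it did 44758 of all 45037 probe sets. On the deposited scale their median difference was 0.017. Of the 19 calls, 9 lasted without any 1 array, 8 of them higher and 1 lower, while the other 10 were lost at least once.

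Of 22 enzymes listed for adenosine and AMP metabolism inside the cell, 5 were higher and 3 lower on the deposited scale. Their median was 0.0092, and 20 of the 22 lay above the median level. That is 22.7% and 13.6%, beside 15.5% and 19.6% of all genes above that level. The list also holds enzymes of linked purine steps, such as Pnp, Xdh and Hprt. Pnp, which splits the inosine that Ada makes, gave 10.60, 10.67 and 10.64 on CD73- arrays and 11.20, 11.21 and 11.21 on CD73+ arrays. Its arrays were far apart and very close within each subgroup, and the difference was 0.57 (limma adjusted p = 0.000557). The adenylate kinase Ak4 was higher by 0.55 (limma adjusted p = 0.000946). Xdh, which oxidises hypoxanthine and xanthine to uric acid, went the opposite way on the deposited scale, at 10.51, 10.52 and 10.53 on CD73- and 10.09, 10.06 and 10.00 on CD73+ arrays (log2 -0.47, limma adjusted p = 0.00143; 0.49 after scaling to the poly-A controls). Adal, an adenosine deaminase-like enzyme, was lower on the same scale (log2 -0.27, limma adjusted p = 0.0264; 0.68 after scaling to the poly-A controls). The calls of Pnp, Ak4 and Xdh lasted without any 1 array.

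The other called enzymes of that list, chosen after their values were seen, were the nucleotidases Nt5c (0.37) and Nt5c1b (0.28), the adenylate kinase Ak1 (0.37) and the purine salvage enzyme Hprt (-0.20, or 0.76 after scaling to the poly-A controls). Their limma adjusted p were 0.00522, 0.0395, 0.00308 and 0.0432. Nt5c and Ak1 lasted without any 1 array. Nt5c1b was dim, at 3.30 and 3.01 in CD73+ and CD73- AD-MSCs, which is the 11.2 percentile of level. Leaving out each of the 6 arrays in turn kept the call of Nt5c1b in 1 case and that of Hprt in 0.

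Of 12 further nucleotide-splitting enzymes 2 were higher and 1 was lower, with a median of 0.011, and the methods' t-test called 0. The limma calls are 16.7% and 8.33%, beside 10.1% and 12.6% of all genes. Enpp3 was higher by 0.27 (limma adjusted p = 0.0334) and Entpd7 by 0.26 (0.0375). Enpp4 was lower on the deposited scale (log2 -0.51, limma adjusted p = 0.0162) and at 0.44 after scaling to the poly-A controls. Of the 2 adenosine receptors listed beside Adora2a and Adora2b, Adora1 is unnamed here and Adora3 was dim and not called (log2 0.053, 95% interval -0.17 to 0.28, limma adjusted p = 0.784). No receptor for adenosine was thus called, and 3 of the 4 were not analysed here. Of 5 further nucleoside transporters and proteins that bind adenosine deaminase, limma called 0, 0 had an unadjusted p under 0.05 and the methods' t-test called 0; the median was -0.028. The smallest p values were those of Slc28a3 (log2 -0.099, limma adjusted p = 0.471; 0.86 after scaling to the poly-A controls) and Slc29a2 (0.095, 0.617).

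Among 15 G proteins and adenylyl cyclases, 1 was higher and 1 lower, with a median of 0.013. That is 6.67% each, beside 15.5% and 19.6% of all genes above the median level, where 13 of the 15 lay. Gnai2, an inhibitory subunit, was higher by 0.25 (limma adjusted p = 0.0209), and Adcy1, an adenylyl cyclase, was lower on the deposited scale (log2 -0.38, limma adjusted p = 0.0373) and at 0.57 after scaling to the poly-A controls. Of 20 cAMP effectors and phosphodiesterases, 5 were higher and 1 was lower, with a median of 0.14, and 19 of the 20 lay above the median level. That is 25% and 5%, beside 15.5% and 19.6% of all genes above that level. Some of the genes not called on their brightest probe set were called on others. Of the 7 probe sets of Pde7a 5 were higher, and of the 6 of Creb1 3 were lower. Prkar1a, Crem and Pde4b each had 1 other probe set called higher. The regulatory subunits of protein kinase A Prkar2b (0.66, limma adjusted p = 0.00102) and Prkar1b (0.55, 0.00277) had the largest rises. Prkar2b gave 7.64, 7.50 and 7.45 on CD73- arrays and 8.15, 8.27 and 8.16 on CD73+ arrays, well apart. The CREB coactivator Crtc2 was lower on the deposited scale (log2 -0.39, limma adjusted p = 0.0191) and at 0.57 after scaling to the poly-A controls. Named after their values were seen, Prkaca (0.34, limma adjusted p = 0.00550), Prkar2a (0.22, 0.0433) and the exchange factor Rapgef3 (0.47, 0.0108) were the other genes called higher. Prkar2b, Prkar1b, Prkaca and Rapgef3 lasted without any 1 array.

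**Figure D5:**
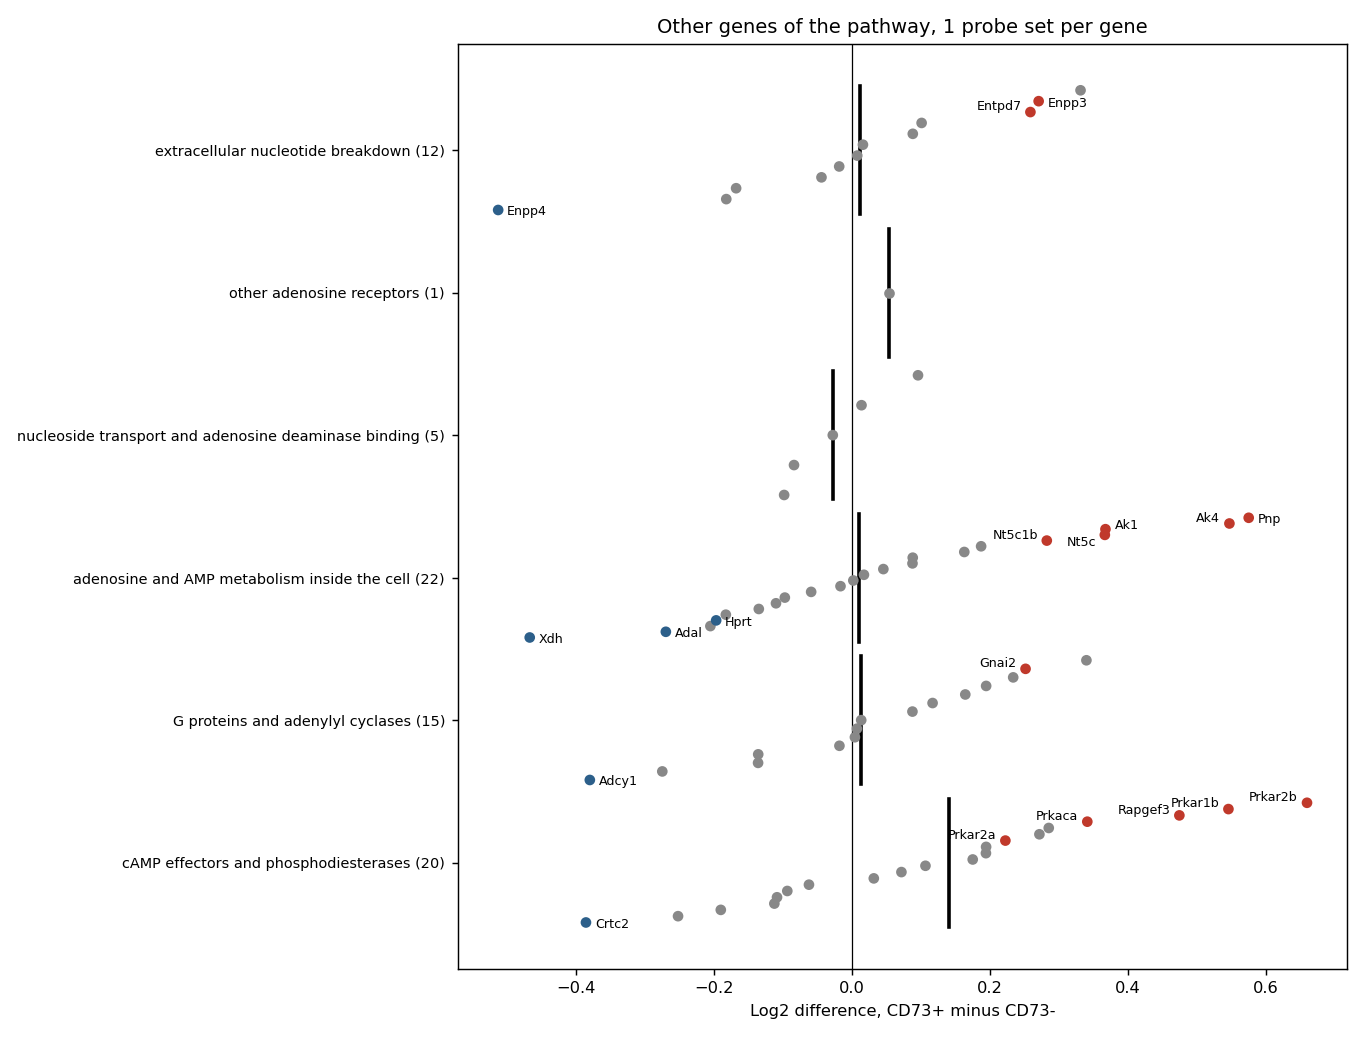
Log2 difference, CD73+ minus CD73- (x axis), of the 75 other pathway genes, 1 probe set per gene, in 6 lists with the number measured in brackets and the median of each list as a black line. Red points were called higher and blue points lower on the deposited scale and grey ones were not called, while scaling to the poly-A controls puts all 75 above 0; the points run from -0.51 for Enpp4 to 0.66 for Prkar2b.

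Markers of 6 other cell types were read beside these genes. Over all genes read from the brightest probe set, 10.1% were higher and 12.6% lower. Of 10 haematopoietic and macrophage markers 1 was higher (Csf1r, 0.49, limma adjusted p = 0.00777) and 0 were lower, and the summed linear signal was 372 to 409 in CD73+ and 352 to 376 in CD73- arrays. Of 8 endothelial markers limma called 0, 0 had an unadjusted p under 0.05 and the methods' t-test called 0, with sums of 275 to 346 and 280 to 304, and Pecam1 and Cdh5 were below the median level, while Kdr (6.13 and 6.14 in CD73+ and CD73- AD-MSCs) and Egfl7 (7.06 and 6.91) were above it. Of 8 smooth muscle and pericyte markers 2 were higher (Tagln, 0.35, and Cnn1, 0.48) and 0 lower (sums of 22953 to 23155 and 20189 to 20644). Of 7 mesothelial and epithelial markers 1 was higher (Msln, 0.61) and 0 were lower (202 to 226 and 173 to 189). Of 6 adipocyte markers (716 to 753 and 765 to 821) and 4 Schwann cell markers (145 to 179 and 150 to 175) limma and the methods' t-test called 0, with 1 of each list at an unadjusted p under 0.05. These counts are of the brightest probe set of each gene, and some markers not called on it were called on others. Limma called 2 of the 3 probe sets of Acta2, 2 of the 4 of Fabp4 and 2 of the 6 of the stromal Itgb1 higher. It called 1 of the 2 of Cspg4 and 1 of the 2 of Lpl lower. Adipoq, which defines adipocytes, was at 3.18 and 3.17, while Lpl (9.28 and 9.36) and Retn (5.84 and 6.08) were above the median level. The directions are those of the deposited scale, and the part of these levels, and of the stromal list, in the results on the adenosine pathway was not tested.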

How the data were processed

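Total RNA of 3 CD73+ and 3 CD73- AD-MSC samples had been hybridised to Affymetrix mouse arrays. Log2 values of 45101 probe sets were deposited. RMA is named in the submitters' processing notes, with a version not given in the sources used here. It brings the arrays to nearly 1 distribution, which takes out any shift that most transcripts share. The number of arrays limits the precision.

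Without the 64 control probe sets, 45037 were tested in R 4.3.3 using limma 3.58.1 (lmFit, then eBayes; subgroup as the only term; dim probe sets kept). P-values were adjusted by the Benjamini-Hochberg method, with a threshold of 0.05. The steps were tested on simulated data. Of these probe sets, 34945 carried 1 gene symbol, 932 several and 9160 none, and the Entrez ID of 34741 matched RefSeq's gene table. A gene was read from its brightest probe set, and every probe set is given for the adenosine pathway genes. Named from the other lists were up to 2 genes with the largest rise and 2 with the largest fall among those called, or the 2 with the smallest p where none was called. The 6 pathway and 7 marker lists were compiled by hand. The genes and lists were chosen with earlier results of these data known. Alternatives were quantile normalization, median centring, cyclic loess, scaling to the poly-A controls, a filter at the median level, a trend, robust priors and array weights. Others were an equal-variance t-test of each probe set, the replicate number as a block, the mean of a gene's probe sets, and leaving out each array. That t-test is labelled the methods' t-test because a one-way ANOVA of 2 groups equals it. The methods name one-way ANOVA for the study as a whole and no test for single probe sets. Figures were drawn with matplotlib 3.10.9.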

Additional observations from a re-analysis of the deposited data

How the results depend on the processing

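Of the counts given for the adenosine pathway genes, the 5 probe sets called higher became 2 under median centring, 21 after scaling to the poly-A controls, 2 under the methods' t-test and 3 with the replicate block, and 1 to 4 when 1 array was left out. The 3 called lower became 0 after scaling to the poly-A controls and 1 to 3 when 1 array was left out. Of the other pathway genes, the 13 called higher became 8 under median centring, 75 after scaling to the poly-A controls, 21 with a trend in eBayes, 20 with array weights and 8 to 14 when 1 array was left out. The 6 called lower became 0 after scaling to the poly-A controls, 10 with the filter at the median level, 10 with a trend, 11 with array weights, 3 under the methods' t-test, 3 with the replicate block and 2 to 4 when 1 array was left out. Scaling to the poly-A controls called 44758 of all 45037 probe sets higher and 29 lower. The filter tests fewer probe sets, and the cause of the other changes was not tested.

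Scaling to the poly-A controls turned every negative difference of a named gene: Nt5e 1428547_at (0.83), Entpd1 1423326_at (0.89), Entpd2 (0.55), Entpd5 1417382_at (0.67), 1417384_at (0.82), 1433763_at (0.69), 1451765_a_at (0.74), 1417383_at (0.82) and 1458677_at (0.91), Enpp4 (0.44), Slc28a3 (0.86), Xdh (0.49), Adal (0.68), Adcy1 (0.57), Crtc2 (0.57) and Hprt (0.76). The other reversals were of uncalled values near 0. Adk 1446675_at changed sign under median centring (-0.028), cyclic loess (-0.0020) and array weights (-0.021) and Entpd5 1458677_at under array weights (0.026), and the mean of its probe sets turned Entpd1 (0.040). Leaving out 1 array gave -0.15 to 0.069 for Entpd1 1423326_at, -0.030 to 0.19 for Entpd1 1450939_at, -0.096 to 0.059 for Entpd5 1458677_at and -0.024 to 0.029 for Adk 1446675_at, and -0.032 to 0.14 for Adora3.

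Whether the replicate numbers pair the arrays is not said in the labels. The deviations of same-numbered arrays from their subgroup means correlated at -0.14, 0.028 and -0.14. With 3 arrays per subgroup these values cannot decide whether the arrays were paired. With the replicate block Entpd5 1433763_at (limma adjusted p = 0.0543), Adk 1438292_x_at (0.123) and Slc29a1 (0.0952) were not called, and it changed no other call of the adenosine pathway probe sets. Adk 1416319_at was called higher under every alternative run, Entpd2 was called lower under every one except scaling to the poly-A controls. Array signal limits what can be seen of Entpd1, Adora3 and the dim probe sets of Nt5e and Adk.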
